A study of Macaca mulatta with 6 samples.

Results

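Eph receptors and ephrins were examined in rhesus monkey induced pluripotent stem cell (iPSC) lines kept in a naive or a primed state. The set held 10 genes of the 30246 gene rows in the deposited tables, 7 receptors (EPHA1, EPHA2, EPHA4, EPHA7, EPHB2, EPHB3 and EPHB4) and 3 ligands (EFNA1, EFNB1 and EFNB2). Each was found by its symbol and had 1 row. The set was chosen by its naive and primed FPKM in these same libraries, so that contrast is described for the 10 genes without a test. RNA sequencing covered 6 libraries, 2 from female naive lines, 2 from male naive lines and 2 from male primed lines. Naive lines of both sexes grew in a knockout DMEM medium called 6SM, which held 15% knockout serum replacement, N2 supplement, 10 ng/ml human LIF and 4 ng/ml bFGF. The inhibitors in it were CHIR99021 against GSK3 at 3 µM, PD0325901 against MEK at 0.5 µM, SB203580 against p38 at 10 µM and SP600125 against JNK at 10 µM. Primed lines grew in an embryonic stem cell medium called hESM, of D/F12 with 20% serum replacement and bFGF. All lines were iPSC lines derived from fibroblasts, and feeder cells were taken away before colonies were collected. No genotype, allele or donor is given in the labels, and only the naive state was sampled in both sexes.

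Eph receptors are the largest family of receptor tyrosine kinases, and their ligands, the ephrins, are held on the surface of neighbouring cells, so that signalling needs cell contact. Ephrin-A ligands are attached by a lipid anchor and bind mainly A-class receptors, whereas ephrin-B ligands span the membrane and bind mainly B-class receptors, and both the receptor-bearing and the ligand-bearing cell can respond. The system is known for sorting cells into compartments, setting tissue boundaries and guiding axons, and in epithelia and early embryos for regulating adhesion and the actin cytoskeleton.

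Levels are given in FPKM (fragments scaled to transcript length and to the number mapped), a scale per length on which genes can be compared. Differences are on the log2(FPKM + 1) scale. Depth was estimated from the deposited error bounds as effective fragments. It came to 8294782 and 10013491 in female naive, 1754857 and 1478692 in male naive, against 9970137 and 7607125 in primed libraries, so low genes were measured least precisely in male naive lines. The 8 pluripotency markers summed to 1479 and 2002 FPKM in female naive and 1129 and 1154 in male naive, against 602 and 505 in primed libraries. Of them 5 lay wholly above in naive lines, where 18.9% of all tested rows did. Among the 5, POU5F1 was at 738 and 1160 FPKM in female naive and 536 and 571 in male naive, against 135 and 109 in primed libraries. NANOG was at 73.8 and 95.9 FPKM in female naive and 28.7 and 30.7 in male naive, against 0.933 and 2.09 in primed libraries, and TDGF1 was listed at 0 in primed 1 and at 0.818 FPKM in primed 2. SOX2 alone lay wholly below, at 85.3 and 100.5 FPKM in female naive and 114 and 122 in male naive, against 141 and 124 in primed libraries. Fibroblast and feeder markers summed to 1233 and 1937 FPKM in female naive and 1944 and 1709 in male naive, against 655 and 1296 in primed libraries. TAGLN, a smooth muscle and fibroblast actin-binding protein, supplied most of each sum. Without it, a choice made after its values were seen, the sums were 295 and 403 FPKM in female naive and 275 and 259 in male naive, against 143 and 423 in primed libraries. Primed 2 was then the highest library, and 6 of the 11 markers were highest there, LUM being at 19.9 FPKM in primed 2 and 0.111 in primed 1. The share of all rows highest in primed 2 was not counted, so nothing is read from that count. Of the 11, 2 (TAGLN and THY1) lay wholly above in naive lines and 0 wholly below. THY1 was at 86.7 and 167 FPKM in female naive and 40.9 and 33.3 in male naive, against 7.49 and 32.0 in primed libraries. In bulk RNA, fewer cells expressing a gene and less of its RNA per cell cannot be told apart.

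The total Eph receptor level covered overlapping ranges in naive and primed lines, while EPHA1 and EPHA4 made up different shares of it. Summed over the 14 receptor genes with a row, the level was 102.0 and 128 FPKM in female naive, 120.1 and 125 in male naive, against 115 and 100.4 in primed libraries. EPHA1 supplied 22.4% and 22.3% of that sum in female naive libraries, 11.3% and 15.5% in male naive libraries and 0.175% and 1.31% in primed libraries. EPHA4 supplied 4.66% and 2.84% in female naive, 13.0% and 13.8% in male naive, against 26.8% and 22.5% in primed libraries. The ligand pool was lower in every naive library than in either primed library: over 8 ephrin genes it summed to 64.9 and 45.1 FPKM in female naive and 96.6 and 92.2 in male naive, against 163 and 139 in primed libraries. The ratio of summed ligand to summed receptor was 0.636 and 0.352 in female naive, 0.805 and 0.739 in male naive, against 1.42 and 1.38 in primed libraries.

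**Figure D1:**
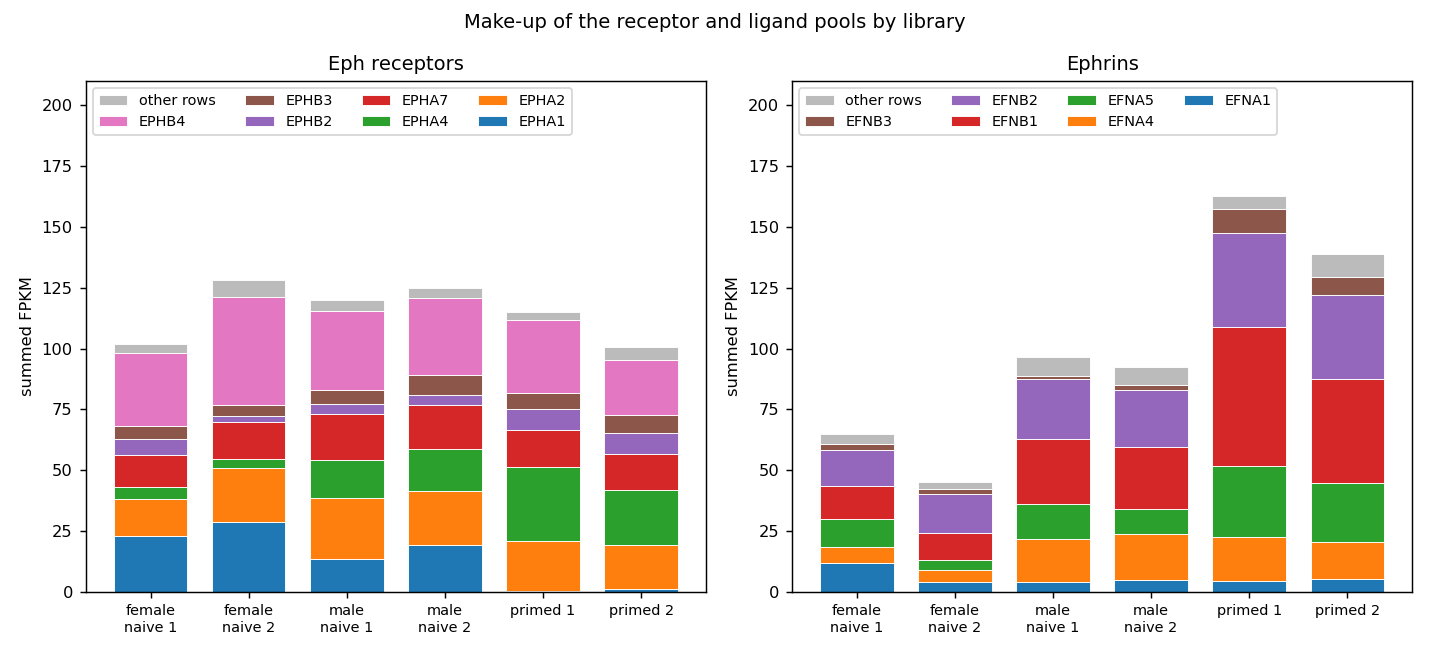
Summed FPKM of Eph receptor genes (left) and ephrin genes (right) in each of the 6 libraries, stacked by gene, with the remaining rows of each class in grey. The receptor bars lie between 100.4 and 128 FPKM in all libraries, while the ephrin bars lie at 45.1 to 96.6 in naive and at 139 and 163 in primed libraries.

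Among the A-class receptors EPHA1 was low in primed lines. EPHA1 (ENSMMUG00000012638, chromosome 3, 180942207 to 180959343 as the deposited files give it), the founding member of the family and a receptor found mainly in epithelia, was at 22.9 and 28.6 FPKM in female naive and 13.6 and 19.4 in male naive, against 0.201 and 1.31 in primed libraries. Every naive library lay above both primed libraries, and the female naive pair lay above the male naive pair. The mean of the 4 naive libraries was 21.1 ± 6.29 FPKM (SD, n = 4), or 27.9 times the primed mean of 0.756 ± 0.786 (SD, n = 2), and the fitted log2 difference was 3.68 (SE 0.31), the largest positive difference among the 10 genes. The primed values rested on 9 and 46 effective fragments, against 847 and 1283 in female naive and 108 and 130 in male naive libraries. Without primed 1 the naive mean was 16.1 times the remaining primed value and the log2 difference was 3.21, and without primed 2 they were 105 times and 4.16. Of 7 epithelial markers 5 lay wholly above in naive lines, where 18.9% of all tested rows did. All 7 were at 1 FPKM or more in every naive library, and they summed to 1024 and 975 FPKM in female naive and 747 and 777 in male naive, against 179 and 396 in primed libraries. In primed 1, 4 of the 7 reached 1 FPKM and CLDN7 was listed at 0, and CDH1 was at 0.0805 FPKM there. In primed 2 all 7 reached 1 FPKM, so this threshold did not separate the states. CDH1 was at 1.58 FPKM in primed 2, against 2.12 and 2.16 in male naive libraries. CLDN7 was at 3.80 FPKM in primed 2, against 3.08 and 5.23 in male naive libraries. The part of these markers in the EPHA1 difference was not tested.

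EPHA4 ran the other way. EPHA4 (ENSMMUG00000012364, chromosome 12, 85295587 to 85442248), which binds ligands of both classes and is known from mice as an axon guidance receptor, was at 4.75 and 3.65 FPKM in female naive and 15.7 and 17.2 in male naive, against 30.8 and 22.6 in primed libraries. None of the 3 groups overlapped, with male naive lines between the others. The log2 difference was -1.53 (SE 0.19), the largest negative difference among the 10 genes, and it was -2.41 for female naive and -0.65 for male naive lines when each was set against the same primed libraries. Of 7 neural markers 6 lay wholly below in naive lines, where 15.9% of all tested rows did. Of them 3 (MAP2, DCX and POU3F2) had the order of EPHA4 over all 3 groups without overlap. The share of all rows with that order was not counted. The 7 summed to 20.9 and 16.0 FPKM in female naive and 60.2 and 49.97 in male naive, against 105 and 77.4 in primed libraries. MAP2, a neuronal microtubule protein, was at 5.599 and 3.19 FPKM in female naive and 20.9 and 20.9 in male naive, against 32.7 and 22.4 in primed libraries. TUBB3 in male naive 1, at 25.2 FPKM, was above both primed libraries, and PAX6 and NCAM1 overlapped between the naive groups. NEUROG2, which was not among the tested rows, was listed at 0 in all 4 naive libraries and was at 0.122 FPKM in primed 2. Their part in the EPHA4 difference was not tested. The level of EPHA1 and EPHA4 added together, a sum chosen after its values were seen, was 27.6 and 32.3 FPKM in female naive, 29.3 and 36.6 in male naive, against 31.0 and 23.9 in primed libraries. The level of EPHA1 over that of EPHA4 was 4.82 and 7.84 in female naive, 0.869 and 1.13 in male naive, against 0.00653 and 0.058 in primed libraries.

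The other A-class receptors of the set did not separate the 2 states. EPHA2 (ENSMMUG00000018245, chromosome 1, 18929700 to 18959874), an epithelial receptor for ephrin-A1, was at 15.4 and 22.2 FPKM in female naive and 24.7 and 22.2 in male naive, against 20.5 and 17.9 in primed libraries. EPHA7 (ENSMMUG00000014867, chromosome 4, 89161848 to 89336467), a receptor of the developing nervous system in mice, was at 13.3 and 15.2 FPKM in female naive and 19.2 and 18.2 in male naive, against 15.0 and 14.7 in primed libraries. For both genes the primed values fell inside the naive range. The log2 differences were 0.12 (SE 0.18) for EPHA2 and 0.13 (SE 0.14) for EPHA7, and without both male naive libraries they were -0.05 and -0.06. EPHA2 held rank 2 or 3 and EPHA7 rank 3 or 4 among the 14 receptor rows in every library, while EPHA1 held rank 2 in both female naive libraries, ranks 5 and 3 in male naive libraries and ranks 10 and 9 in primed libraries.

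**Figure D2:**
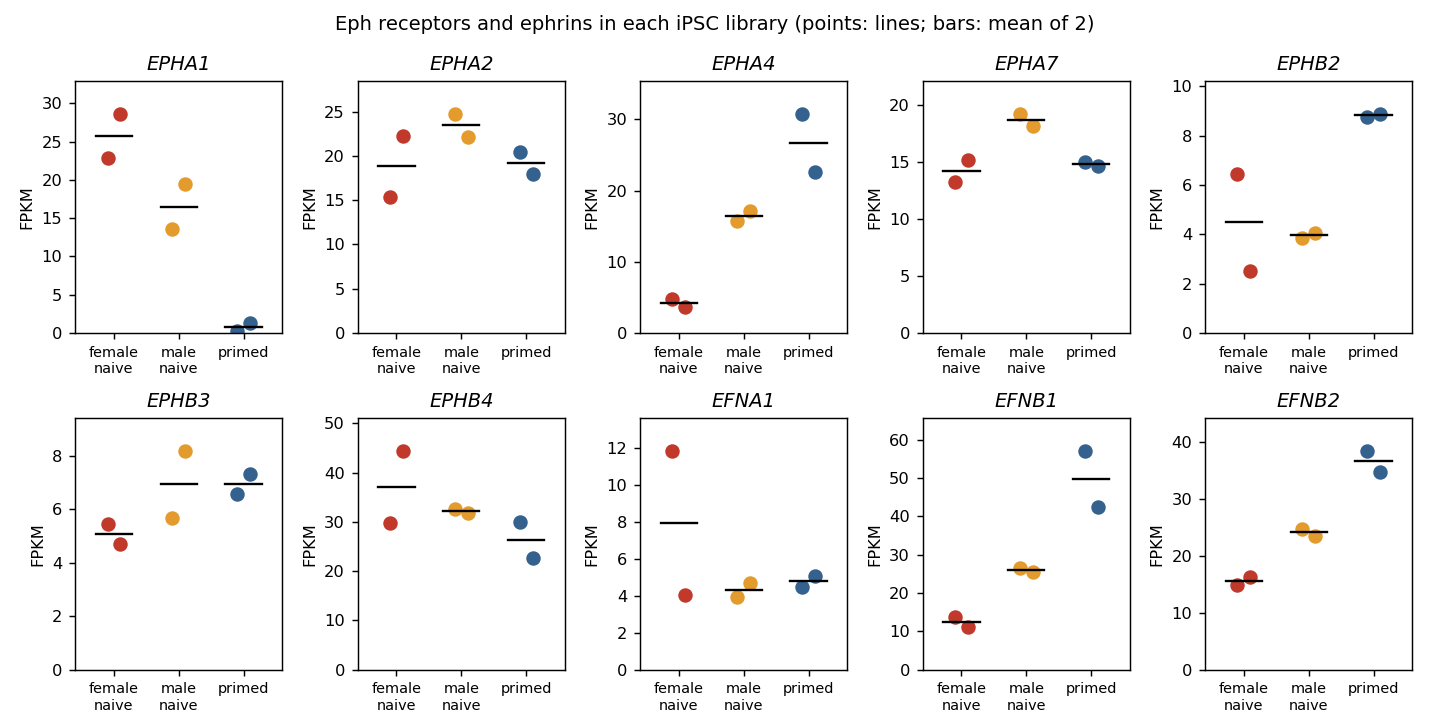
FPKM of the 10 genes in each library, with 1 panel per gene, points for the 2 lines of each group and a bar at their mean, on axes that start at 0. EPHA1 is above 13 FPKM in every naive library and below 1.4 in both primed libraries, and EPHA4, EFNB1 and EFNB2 lie lowest in female naive and highest in primed lines, with male naive lines between.

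Among B-class receptors EPHB4 was the most abundant and EPHB2 the one whose naive and primed libraries did not overlap. EPHB4 (ENSMMUG00000007375, chromosome 3, 48099324 to 48123768), the ephrin-B2 receptor that marks veins in the mouse embryo, was at 29.7 and 44.4 FPKM in female naive and 32.7 and 31.7 in male naive, against 30.0 and 22.7 in primed libraries. It was the highest of the 14 receptor rows in all naive libraries and in primed 2, and next after EPHA4 in primed 1. Its groups overlapped, because primed 1 was level with female naive 1, and the log2 difference was 0.38 (SE 0.20). EPHB2 (ENSMMUG00000023382, chromosome 1, 25364592 to 25486608), an ephrin-B receptor that acts in axon guidance and in the positioning of intestinal crypt cells in mice, was at 6.46 and 2.52 FPKM in female naive and 3.87 and 4.05 in male naive, against 8.75 and 8.88 in primed libraries. All naive libraries were below both primed libraries, and the female naive lines differed from each other by more than the male naive and female naive means did. The log2 difference was -0.96 (SE 0.32), with 16.1 and 14 effective fragments in the male naive libraries. EPHB3 (ENSMMUG00000003304, chromosome 2, 102068995 to 102088248), which works beside EPHB2 in the mouse intestine, was at 5.45 and 4.72 FPKM in female naive and 5.68 and 8.19 in male naive, against 6.56 and 7.32 in primed libraries. Its groups overlapped, with a log2 difference of -0.20 (SE 0.21).

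Both ephrin-B ligands of the set were lower in naive than in primed lines. EFNB1 (ENSMMUG00000020965, chromosome X, 67788409 to 67801649), the ligand whose mutation causes craniofrontonasal syndrome in humans, was at 13.8 and 11.1 FPKM in female naive and 26.4 and 25.4 in male naive, against 57.2 and 42.4 in primed libraries. EFNB2 (ENSMMUG00000009892, chromosome 17, 86682464 to 86704012), the artery-marking ligand of EPHB4 in the mouse embryo, was at 14.9 and 16.2 FPKM in female naive and 24.7 and 23.5 in male naive, against 38.4 and 34.7 in primed libraries. For both ligands the 3 groups did not overlap and male naive lines lay in the middle, as they did for EPHA4. The log2 differences were -1.40 (SE 0.17) for EFNB1 and -0.88 (SE 0.13) for EFNB2. Against the same primed libraries, female naive lines were at -1.91 for EFNB1 and -1.18 for EFNB2, and male naive lines at -0.90 for EFNB1 and -0.58 for EFNB2. EFNB1 was the leading ligand in male naive and primed libraries and EFNB2 in female naive libraries, the level of EFNB1 over that of EFNB2 being 0.926 and 0.688 in female naive, 1.07 and 1.08 in male naive, against 1.49 and 1.22 in primed libraries. The level of EFNB2 over that of its receptor EPHB4 was 0.501 and 0.364 in female naive, 0.757 and 0.739 in male naive, against 1.28 and 1.53 in primed libraries.

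EFNA1 (ENSMMUG00000005350, chromosome 1, 133676516 to 133682936), the lipid-anchored ligand of EPHA2, was at 11.9 and 4.04 FPKM in female naive and 3.95 and 4.72 in male naive, against 4.47 and 5.08 in primed libraries. Female naive 1 stood apart and the other 5 libraries lay between 3.95 and 5.08 FPKM. The log2 difference was 0.18 (SE 0.38), and it was -0.15 without female naive 1. The value rested on 3.9 effective fragments in each male naive library, where the deposited lower bound was 0.

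Counting the 10 genes by whether the 4 naive and the 2 primed libraries overlapped, 1 (EPHA1) lay wholly above, 4 (EPHA4, EPHB2, EFNB1 and EFNB2) lay wholly below and 5 overlapped. Over all 13685 tested rows 18.9% lay wholly above and 15.9% wholly below, 34.8% in all. All 10 genes passed the filter of 1 FPKM in at least 2 libraries. The naive against primed values chose the set, so nothing is read from this count. Limma called 11.3% of the tested rows at a Benjamini-Hochberg adjusted p under 0.05 in this comparison, 920 higher (6.72%) and 628 lower (4.59%) in naive lines, and with upper-quartile scaling 684 higher and 930 lower. That scaling moved the median difference of all rows by -0.10, and under it EPHA1 was at 3.62, EPHA4 at -1.65, EPHB2 at -1.06, EFNB1 at -1.52 and EFNB2 at -0.997.

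**Figure D3:**
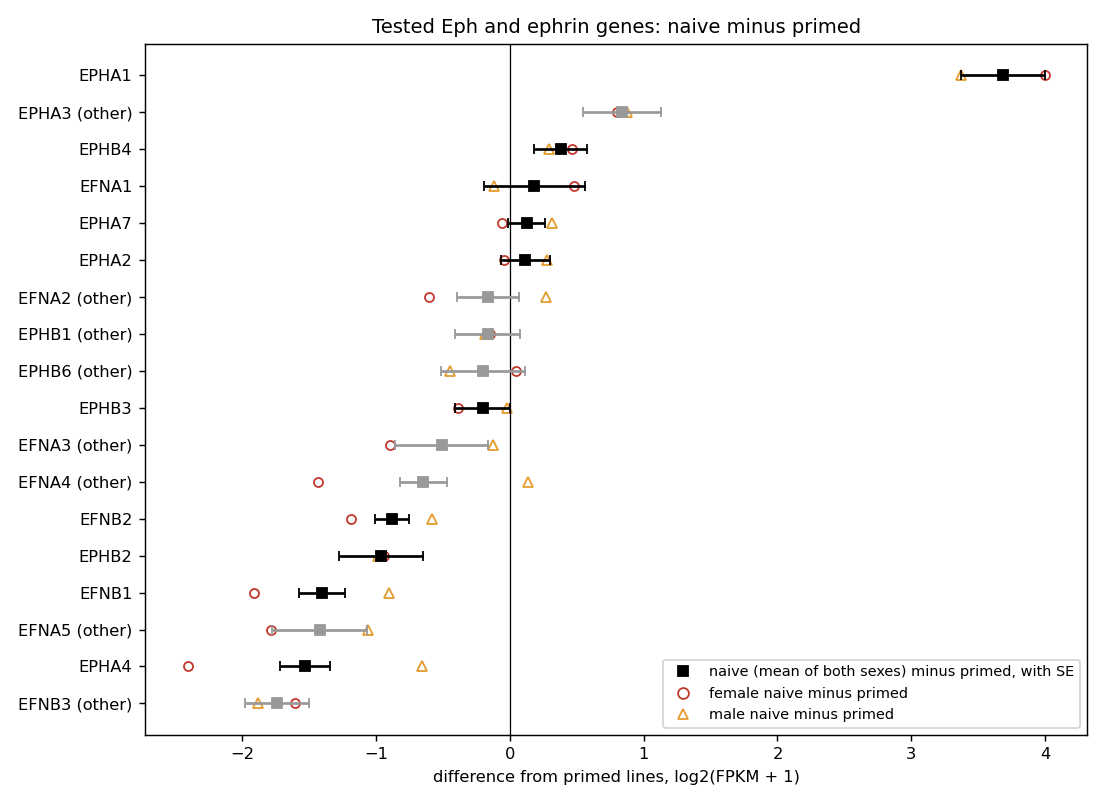
Difference from primed lines on the log2(FPKM + 1) scale for the 18 tested Eph and ephrin genes, sorted by value, with squares for naive lines of both sexes and their SE, circles for female naive and triangles for male naive lines. EPHA1 stands at 3.68, and EFNB3, EPHA4, EFNA5, EFNB1, EPHB2 and EFNB2 lie between -1.74 and -0.88. Among these lower genes the female naive circle is to the left of the male naive triangle for EPHA4, EFNA5, EFNB1 and EFNB2. It is to the right for EFNB3 and EPHB2.

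The rest of the family, 12 genes outside the set, tended to low levels. They are what remained after this same contrast chose the set, so nothing is read from their count or median. Their naive against primed p-values carry the same limit. Of the 12 genes 8 were tested. Of these 8, limma called 1 lower and 0 higher in naive lines (4 at an unadjusted p under 0.05 in either direction), against 6.72% higher and 4.59% lower over all rows, and their median log2 difference was -0.36, against 0.03 over all tested rows. The call was EFNB3 (chromosome 16, 7440489 to 7444629), the remaining ephrin-B and a midline barrier ligand of the mouse nervous system, at 2.25 and 2.07 FPKM in female naive and 1.26 and 1.99 in male naive, against 10.2 and 7.19 in primed libraries. All naive values lay below the primed values, and EFNB3 fell by 1.74 on the log2 scale (SE 0.24, adjusted p = 0.0138 by limma). The call was lost without female naive 1 (adjusted p = 0.0507), female naive 2 (0.0568), male naive 1 (0.0504) and primed 1 (0.0701), and the male naive values rested on 3 and 4 effective fragments. Each of the ephrin-B ligands was thus lower in every naive library than in either primed library.

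EFNA5, a lipid-anchored ligand that patterns retinal projections in mice, was at 11.4 and 4.22 FPKM in female naive and 14.3 and 10.6 in male naive, against 29.2 and 24.5 in primed libraries. Its naive and primed libraries did not overlap, while the female and male naive lines overlapped. EFNA5 missed the threshold with a log2 difference of -1.42 (SE 0.35, limma adjusted p = 0.0538). That difference ran from -1.79 to -1.11 over the alternatives. EPHA3, an ephrin-A5 receptor, was low, at 0.976 and 2.37 FPKM in female naive and 1.63 and 1.80 in male naive, against 0.434 and 0.528 in primed libraries (log2 difference 0.84, SE 0.29, limma adjusted p = 0.111). It passed the filter through naive libraries only, so its direction is no evidence. The row that the files name EFNA4 was at 6.44 and 4.73 FPKM in female naive, 17.9 and 18.8 in male naive, against 18.1 and 15.3 in primed libraries (log2 difference -0.65, SE 0.18, limma adjusted p = 0.0651). A table of gene names gives its identifier, ENSMMUG00000023350, the symbol EFNA3, so which of these neighbouring ligands on chromosome 1 it measures is not settled here. The row that the files name EFNA3 had a log2 difference of -0.51 (SE 0.35), and EFNA2 one of -0.16 (SE 0.23). EPHB1 (-0.17, SE 0.24) and EPHB6 (-0.20, SE 0.31), a receptor without kinase activity, were at 0.882 to 3.03 FPKM in all libraries. EPHA5, EPHA6, EPHA8 and EPHA10 stayed under 0.42 FPKM in every library and were not tested, and EPHA10 was listed at 0 throughout.

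Female and male naive lines shared a medium, and this comparison was not used to choose the genes. Of the 10 genes limma called 1 lower and 0 higher in female naive lines (3 at an unadjusted p under 0.05 in either direction), where 3.31% of all rows were called, 104 higher (0.76%) and 349 lower (2.55%). EPHA4 averaged 4.20 ± 0.779 FPKM in female naive and 16.4 ± 1.06 in male naive lines (SD, n = 2 each), a male level 3.91 times the female one. It fell by 1.75 on the log2 scale (SE 0.22, limma adjusted p = 0.0155), and leaving out a naive library, which leaves 1 library in that group, gave an adjusted p of 0.0696 without female naive 1, 0.118 without female naive 2, 0.100 without male naive 1 and 0.132 without male naive 2. EFNB1 was at 12.5 ± 1.89 FPKM in female naive and 25.9 ± 0.691 in male naive lines (log2 difference -1.01, SE 0.20, limma adjusted p = 0.0543), just over the threshold, and between 0.0453 and 0.261 over the alternatives. EFNB2, at 15.5 ± 0.907 in female naive and 24.1 ± 0.908 in male naive lines, had a log2 difference of -0.60 (SE 0.14, adjusted p = 0.0848). For EPHA1 the means were 25.7 ± 4.04 FPKM in female naive and 16.5 ± 4.10 in male naive lines, with a log2 difference of 0.62 (SE 0.36, adjusted p = 0.377).

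The remaining members had adjusted p of 0.239 or more between the naive groups, with log2 differences from -0.37 for EPHA7 to 0.60 for EFNA1. By overlap of the libraries, 5 of the 10 genes (EPHA4, EPHA7, EPHB3, EFNB1 and EFNB2) lay wholly below and 1 (EPHA1) wholly above in female naive lines, where 37.6% of all tested rows lay wholly below, 19.4% wholly above and 57% to either side. Among the other family genes the row named EFNA4 was called, at 5.59 ± 1.21 FPKM in female naive and 18.4 ± 0.644 in male naive lines (log2 difference -1.57, SE 0.20, limma adjusted p = 0.0169). Its call was lost without female naive 1 (adjusted p = 0.0612), female naive 2 (0.114), male naive 1 (0.110) and male naive 2 (0.138). The median of all rows in this comparison was -0.10, and upper-quartile, median-of-ratios and quantile scaling moved it by 0.14, 0.13 and 0.12. Those scalings gave 111 higher and 212 lower, 114 and 219, and 118 and 223 calls, and EPHA4 was at -1.61, -1.62 and -1.61 under them. Depth differs between these groups as the male naive libraries are the shallowest, and sex, donor and line cannot be told apart.

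**Figure D4:**
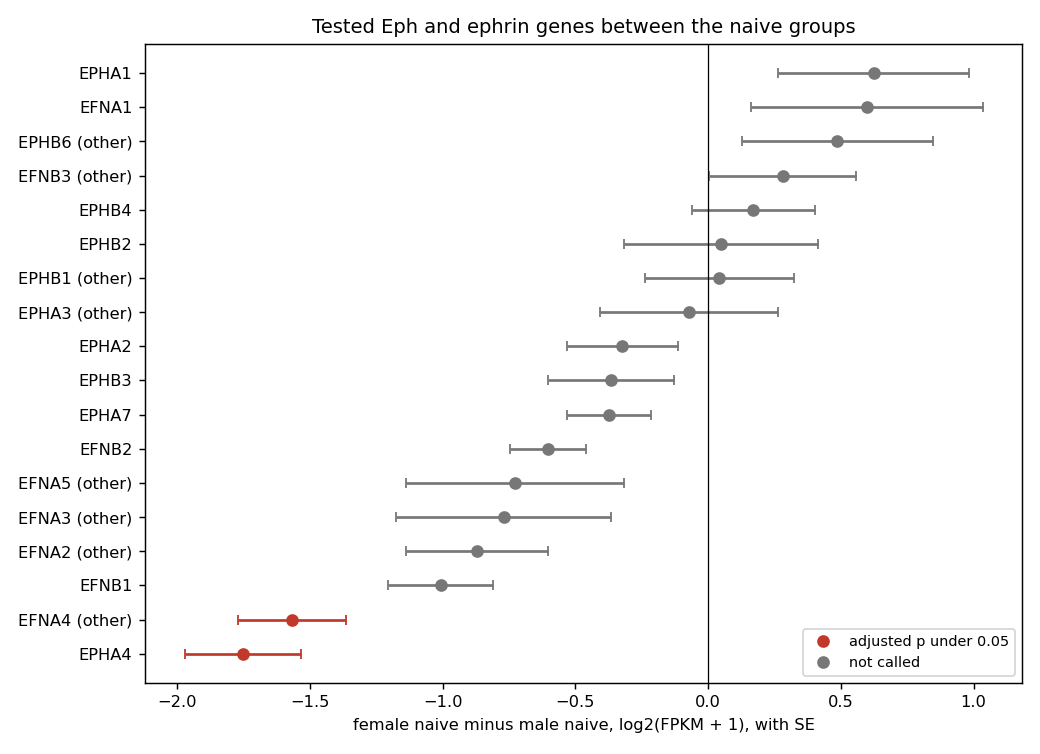
Female naive minus male naive difference on the log2(FPKM + 1) scale with its SE for the 18 tested Eph and ephrin genes. EPHA4 at -1.75 and the row named EFNA4 at -1.57, in red, passed an adjusted p of 0.05, and EFNB1 at -1.01 was just over it.

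Genes that act around the receptors were followed in 2 lists. Of 36 tested cytoplasmic partners (40 listed), limma called 3 higher and 2 lower in naive lines, with a median log2 difference of -0.06. PXN, the focal adhesion adaptor paxillin, rose by 1.86 (SE 0.25, adjusted p = 0.0132), and was at 56.3 and 101 FPKM in female naive and 33.4 and 32.1 in male naive, against 11.4 and 14.8 in primed libraries. KALRN, a guanine nucleotide exchange factor that acts downstream of EphB receptors in neurons, rose by 1.57 (SE 0.26, adjusted p = 0.0209), and the adaptor SHC1 by 1.03 (SE 0.17, adjusted p = 0.021). DVL2, a Dishevelled protein that also takes part in WNT signalling, fell by 0.55 (SE 0.12, adjusted p = 0.0418), and FYN, a SRC family kinase named after its value was seen, fell by 0.57 (SE 0.14, adjusted p = 0.0491). The DVL2 and FYN calls were each lost when any 1 library was left out (adjusted p from 0.0943 to 0.128 for DVL2 and from 0.0716 to 0.152 for FYN), with a replicate block (0.0869 for DVL2 and 0.0931 for FYN), with sex ignored (0.0866 and 0.0931) and without both male naive libraries (0.128 and 0.104). FYN was also lost with a pseudocount of 0.1 (adjusted p = 0.0526) and with no filter (0.0678).

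Of 12 tested proteases that cut Ephs or ephrins or act beside those that do (15 listed), 2 rose and 0 fell, with 3 at an unadjusted p under 0.05 in limma and a median of 0.18. ADAM10, the metalloprotease that releases ephrin-A from the cell surface, was at 63.1 and 71.2 FPKM in female naive and 45.3 and 48.5 in male naive, against 32.3 and 34.1 in primed libraries, and rose by 0.74 (SE 0.11, adjusted p = 0.0177). ADAM19 rose by 1.61 (SE 0.24, adjusted p = 0.016). The calls of PXN, KALRN, SHC1, ADAM10 and ADAM19 were also lost under some alternatives, though their log2 differences stayed positive. These ran from 1.65 to 2.45 for PXN, 1.31 to 2.45 for KALRN and 0.84 to 1.29 for SHC1. For ADAM10 they ran from 0.62 to 0.99 and for ADAM19 from 1.40 to 1.82. The shares called can be read against 11.3% of all rows and the medians against 0.03, and calls between the naive groups against 3.31%. Over all pathway genes tested, which include more than these lists, there were 10 calls, and the number called was 7 without female naive 1, 2 without female naive 2, 0 without male naive 1, 0 without male naive 2, 1 without primed 1 and 9 without primed 2. Between the naive groups only KALRN was called in the 2 lists, higher in female naive lines (log2 difference 1.74, SE 0.30, limma adjusted p = 0.0388). That call was lost without female naive 1 (adjusted p = 0.113), female naive 2 (0.226), male naive 1 (0.158) and male naive 2 (0.192).

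The tested rows whose log2(FPKM + 1) over the 6 libraries was most like that of EPHA1 were G3BP2 (Pearson's r 0.995), SH2B3 (0.994) and DSE (0.994). Those most like EPHA4 were XRCC1 (0.999), NCOA6 (0.999) and ZEB2 (0.998). XRCC1 was at 26.0 and 22.9 FPKM in female naive and 39.3 and 40.9 in male naive, against 52.3 and 46.5 in primed libraries. NCOA6 was at 5.15 and 4.57 FPKM in female naive and 8.94 and 8.97 in male naive, against 12.6 and 10.7 in primed libraries. ZEB2 was at 3.79 and 2.35 FPKM in female naive and 14.6 and 15.2 in male naive, against 35.1 and 24.7 in primed libraries. These correlations are descriptions over 6 libraries that fall into 3 groups, and 12 rows for EPHA1 and 29 for EPHA4 exceeded 0.99.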

How the data were processed

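Total RNA of 6 rhesus iPSC lines was sequenced. The submitters' processing notes name TopHat 1.3.0 for alignment. The authors deposited FPKM with lower and upper bounds for 30246 Ensembl gene rows per library, in the layout of a Cufflinks tracking table, per the file headers. Not given in the sources used here: genome build, annotation release, quantifier version and any scaling between libraries. Coordinates are those of the files. The files hold a symbol for 22292 rows, and a table of gene names gave one for 728 more.

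There were no counts. Because the deposited bounds lie 2 SD from the FPKM value, effective fragments were taken as (2 FPKM / (upper bound - FPKM)) squared, which reflects counting error and, for genes with several isoforms, also the uncertainty of assignment.

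A row was tested if its FPKM reached 1 in 2 or more libraries and its status was OK throughout, which left 13685 rows. The model was limma 3.58.1 (R 4.3.3) with a trend on log2(FPKM + 1), 1 mean for each of the 3 groups and all 6 libraries, two-sided, with Benjamini-Hochberg adjustment over all tested rows at 0.05. The contrasts were naive (mean of the female and male naive means) against primed and female against male naive. The fit was tested on simulated data. The labels name lines but not donors or separate cultures, so p-values cover only the spread among these libraries, which may be technical.

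The members and lists were chosen with earlier results of these data known. The genes named are the members, the rest of the family, up to 4 called genes per list with the smallest p (up to 3 between the naive groups), and the 3 rows most like the members with the largest rise and fall. The lists were cytoplasmic partners, proteases, other receptor tyrosine kinases, and markers of pluripotent, fibroblast and feeder, endothelial, neural and epithelial cells. A further pathway list entered the total of pathway calls and is not reported here. Alternatives were a pseudocount of 0.1, filters of none and of 5 FPKM, 3 scalings, leaving out rows spanning under 300 bp with rescaling, a block for the number in the titles, sex ignored, the naive libraries alone, and leaving out libraries. No member had a second row, so summing rows changed no member's value. Sequences were not used here.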

Additional observations from a re-analysis of the deposited data

Results flagged for a closer look

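EFNA1 in female naive 1 stood apart from the other naive libraries. It was at 11.9 FPKM there, against 3.95 to 4.72 in the other 3, so that the gap was 0.903 of the whole range, above Dixon's critical value for 4 samples. Of 20 Eph and ephrin genes checked in this way it was the only one past that value, and chance passes about 1 in 20. Female naive 1 rested on 66.9 effective fragments and the male naive libraries on 3.9 each.

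EPHA4 was lower in female than in male naive lines, at a log2 difference of -1.75 (limma adjusted p = 0.0155, 2 libraries each), which is also the difference between the female and the male naive change from the same primed lines. The row named EFNA4 differed likewise, at -1.57 (limma adjusted p = 0.0169). For the EFNA4 row, male naive and primed libraries overlapped, at 17.9 and 18.8 FPKM in male naive, against 18.1 and 15.3 in primed libraries.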

How the results depend on the processing

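Over all rows 1548 genes were called in naive against primed lines and 453 in female against male naive lines. These were 941 and 268 with no filter on low values, 250 (naive against primed) with sex ignored and 625 without both male naive libraries, and ran from 177 to 1081 and from 41 to 523 when 1 library was left out. Of the 10 genes 1 was called between the naive groups, 2 with a filter of 5 FPKM or with the 4 naive libraries alone (EPHA4 and EFNB1), and 0 to 2 with 1 library left out. The 1 call in the rest of the family became 2 with a filter of 5 FPKM, median-of-ratios scaling, quantile normalization, rescaling without short rows or no male naive libraries, 3 with upper-quartile scaling, and 0 or 1 with 1 library left out. The 10 pathway calls became 3 with sex ignored, 5 without both male naive libraries and 0 to 9 with 1 library left out. The cause was not tested, but leaving out a library also leaves 2 residual degrees of freedom.

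Some differences that were not called turned sign. Between the naive groups EPHB2 was at -0.49 without female naive 1 and 0.59 without female naive 2, EFNA1 at -0.077 without female naive 1 and 1.27 without female naive 2, and EPHB4 at 0.45 without female naive 1 and -0.11 without female naive 2. Against primed lines EPHB1 was at -0.37 without primed 1 and 0.036 without primed 2, EPHB6 at -0.40 and 0.0038, and EFNA3 at -1.09 and 0.066. Without both male naive libraries EPHB6 was at 0.043. EPHA1 ranged from 3.21 to 4.97 (the last with a pseudocount of 0.1), EPHA4 from -2.41 to -1.32, EFNB1 from -1.91 to -1.19, EFNB2 from -1.18 to -0.81 and EPHB2 from -1.23 to -0.69 over 17 alternatives each.

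With a replicate block for the number in the titles, 812 genes were called in naive against primed and 207 in female against male naive lines, with 1 of the 10 genes, 2 of the rest of the family and 8 pathway genes called. Deviations of same-numbered libraries correlated at -0.06, -0.26 and -0.05 across genes, so the numbers were not taken as pairs.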

Other observations

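Of the 29 tested receptor tyrosine kinases outside the Eph family (40 listed), limma called 3 higher and 3 lower in naive lines, with a median log2 difference of 0.01. Over all tested rows 6.72% were called higher and 4.59% lower, with a median of 0.03, and 3.31% were called between the naive groups. KDR and FLT1, both receptors for vascular endothelial growth factor, rose by 2.22 (SE 0.24, adjusted p = 0.00966) and 2.28 (SE 0.31, adjusted p = 0.0137), and ERBB2 by 1.09 (SE 0.12, adjusted p = 0.0102). KDR and FLT1 passed the filter of 1 FPKM through naive libraries only, so the filter favoured the direction found. KDR was at 12.2 and 8.45 FPKM in female naive and 1.79 and 2.41 in male naive, against 0.219 and 0.308 in primed libraries. NTRK2, the receptor of the neurotrophin BDNF, fell by 2.87 (SE 0.55, adjusted p = 0.0289), and was at 0.836 and 0.799 FPKM in female naive and 4.76 and 3.95 in male naive, against 46.2 and 9.94 in primed libraries. Between the naive groups KDR was called too, higher in female naive lines (log2 difference 1.86, adjusted p = 0.0281), and that call was lost without any 1 of the 4 naive libraries (adjusted p from 0.112 to 0.147). Without primed 1, the naive against primed adjusted p was 0.0542 for KDR, 0.0629 for FLT1, 0.0524 for ERBB2 and 0.0510 for NTRK2, whose difference was then -1.81. The FLT1 call was also lost without male naive 1 (0.0522) and male naive 2 (0.0526), and the NTRK2 call without each other library but primed 2. The 8 endothelial markers, KDR among them, summed to 21.4 and 19.1 FPKM in female naive. They summed to 18.9 and 16.2 in male naive, against 6.72 and 12.7 in primed libraries. Of the 8, 3 (TIE1, KDR and VWF) lay wholly above in naive lines and 0 wholly below. Over all tested rows 18.9% lay wholly above and 15.9% wholly below. Markers other than KDR and TEK were low. CDH5 was at 2.50 and 3.21 FPKM in female naive and 1.08 and 1.39 in male naive, against 0.399 and 1.37 in primed libraries. PECAM1 was at 1.31 and 0.680 FPKM in female naive, 0 and 0 in male naive, against 0.111 and 0.429 in primed libraries.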
